A study of Homo sapiens with 4 samples.

Results

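Among the 12236 peaks listed on chromosomes 1 to 22 for the ChIP library labelled HA, 140 had a pileup of at least 15 tags and overlapped neither a tRNA gene nor a peak of the library labelled WT. The pileup is the number of sequenced fragments (tags) over the highest point, or summit, of a peak. A peak was a member if it reached 15 tags, if it shared no base with a tRNA gene of the RefSeq table of GRCh38.p14, and if it shared no base with a peak labelled WT. Of all peaks labelled HA on these chromosomes, 462 (3.78%) reached this pileup, 216 of them at a tRNA gene and 116 over a peak labelled WT, with 10 peaks in both classes. A place without a peak labelled WT is one where nothing passed the cutoff of that list, and the tags there are not listed. The 140 members lay in 138 separate regions and came from the list labelled HA only. Both lists of the series together held 19536 peaks. Since the pileup chose the members, their pileup, background, fold enrichment and q-value are given as a description and without a test.

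The series held 4 libraries from K562, an established human leukemia line with the BCR::ABL1 fusion, which was grown without treatment. Chromatin of cells overexpressing HA-PHF6 or HA was cross-linked, sheared and precipitated with an antibody against the HA tag, and unprecipitated input was sequenced too. There was 1 ChIP library and 1 input per condition, so no difference could be set against a spread between replicates. The titles say only HA and WT and do not settle which library held HA-PHF6, so both are named by their labels. The number of tags was 16132466 in the ChIP library labelled HA and 22257947 in the one labelled WT, and their inputs held 23134375 and 24567954 tags. Both groups were K562 cells with an overexpressed construct, and the labels give neither a clone nor a promoter for it.

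PHF6 is a PHD finger protein of the nucleus and nucleolus that is often mutated in T cell leukemia. RNA polymerase III transcribes the tRNA genes, the vault RNA genes and a few other short RNA genes, many of them through A and B box sequences inside the gene. RNA polymerase II starts protein-coding genes at promoters, of which a large part are rich in GC and hold short recurring sequences for zinc finger and other factors.

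The sequences just upstream of the start sites under the peaks are shown first, because start sites are a feature that the rule had not used and that 35 of the members met. The windows come from RefSeq (GRCh38) and run from 250 bases before to 50 bases after each start site. Printed here are the 250 upstream bases of the 5 genes below, 5′ to 3′ in the direction of the gene, chosen from the members of high fold enrichment at promoter windows. They lie at chr19:4791484-4791733 (+ strand) for FEM1A, chr20:10435055-10435304 (+) for SLX4IP, chr5:173616651-173616900 (−) for BOD1, chr11:118436242-118436491 (+) for KMT2A and chr6:30907957-30908206 (+) for GTF2H4. Capitals mark GGGCGG (a GC box), AANATGGC (the core of the sequence bound by YY1) and ACTACAA (part of the sequence bound by ZNF143), each on either strand.
FEM1A: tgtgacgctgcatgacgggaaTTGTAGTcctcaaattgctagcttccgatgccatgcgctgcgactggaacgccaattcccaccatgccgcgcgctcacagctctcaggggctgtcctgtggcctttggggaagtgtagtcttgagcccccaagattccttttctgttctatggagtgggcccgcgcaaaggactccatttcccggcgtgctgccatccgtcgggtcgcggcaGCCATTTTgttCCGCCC
SLX4IP: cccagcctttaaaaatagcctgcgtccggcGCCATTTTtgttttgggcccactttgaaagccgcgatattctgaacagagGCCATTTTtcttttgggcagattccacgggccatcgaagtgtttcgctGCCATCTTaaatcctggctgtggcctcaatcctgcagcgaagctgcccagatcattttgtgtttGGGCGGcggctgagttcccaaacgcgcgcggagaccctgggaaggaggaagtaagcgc
BOD1: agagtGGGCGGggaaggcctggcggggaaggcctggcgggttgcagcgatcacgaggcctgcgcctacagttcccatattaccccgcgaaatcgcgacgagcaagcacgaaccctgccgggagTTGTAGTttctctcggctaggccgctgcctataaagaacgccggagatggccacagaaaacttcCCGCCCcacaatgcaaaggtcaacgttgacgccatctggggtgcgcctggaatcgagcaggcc
KMT2A: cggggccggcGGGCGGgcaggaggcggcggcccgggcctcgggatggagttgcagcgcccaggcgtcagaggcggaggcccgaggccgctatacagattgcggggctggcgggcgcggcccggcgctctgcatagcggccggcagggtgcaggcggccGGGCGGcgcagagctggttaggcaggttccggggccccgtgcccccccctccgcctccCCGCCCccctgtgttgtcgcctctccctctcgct
GTF2H4: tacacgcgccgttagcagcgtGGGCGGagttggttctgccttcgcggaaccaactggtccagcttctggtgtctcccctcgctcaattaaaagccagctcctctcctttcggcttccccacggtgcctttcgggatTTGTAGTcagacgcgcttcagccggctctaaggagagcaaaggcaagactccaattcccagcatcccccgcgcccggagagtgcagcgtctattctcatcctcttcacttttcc

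The letters AANATGGC stood in the windows of 14 of the 34 genes described here. The stretches below show the match nearest to the start site for 8 of these genes, read in the direction of the motif, which is in capitals.
FEM1A: cgggcggaacAAAATGGCtgccgcgacc
SLX4IP: gccaggatttAAGATGGCagcgaaacac
KMT2A: tcacggggcgAACATGGCgcacagctgt
NELFA: gctttcccccAAGATGGCgtccatgcgg
CCDC124: tttctttaccAAAATGGCggcggtactg
DEK: caagattttcAAAATGGCggttcgggaa
DDX23: ggaaacgggaAAGATGGCgacggctccg
TRUB2: ccggctgtggAACATGGCggcgcccgtg

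The letters ACTACAA stood in the windows of 9 genes, and 6 are shown in the direction of the motif, again in capitals. In 7 of the 9 genes, TCCC followed after 1 further base.
FEM1A: tgaggACTACAAttcccgtcatgcagcg
BOD1: gagaaACTACAActcccggcagggttcg
GTF2H4: gtctgACTACAAatcccgaaaggcaccg
GSPT1: gtggaACTACAAgttccggcagcgcccg
PRDM15: cgcggACTACAAgtcccgccatgccccg
CHMP4B: cactgACTACAActcccagtgggcaacg

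The members had a median pileup of 20 tags, from 15 to 401. Their computed background, the number of tags that the input predicts at the summit, had a median of 5.99 and ran from 1.05 to 278. The fold enrichment, which is the pileup over this background with 1 added to both, had a median of 2.69 (95% interval of the median 2.47 to 3.16) and ran from 1.41 to 11.5. For all peaks labelled HA the medians were 5 tags, a background of 1.05 and a fold enrichment of 2.93. By these medians, the members were high in tags but not in fold enrichment. The upper quartile of fold enrichment was 4.11 in the members and 3.34 in all peaks labelled HA. A background of 1.05 is the genome-wide level of this library, the lowest that the calculation allows, and 53.9% of all peaks sat there against 1 of the 140 members. The peaks of the same pileup at tRNA genes had a median of 25 tags over a background of 3.50 and a fold enrichment of 5.55. Those that overlapped a peak labelled WT had a median of 115.5 tags over a background of 60.3, and a fold enrichment of 2.0.

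The background divided the members into 3 ranges. In 56 members it was under 5 tags, with a median fold enrichment of 4.36. In 64 it was 5 to 20 tags, with a median of 2.32. In the last 20 it was 20 tags or more, with a median pileup of 209, a median background of 111 and a median fold enrichment of 1.87. Of these 20 peaks, 19 overlapped no gene, and the other lay in FAM230C, a long noncoding RNA gene on chromosome 13. An input tag was worth 0.697 tags after scaling, and in 84 of the 140 members the background was a whole number of input tags within 0.01, as it is when input tags directly at the summit set it. This was not counted over all peaks labelled HA. By the q-value, the p-value adjusted for the places tested, 78 members (55.7%) were under 0.05, against 4.54% of all peaks labelled HA. A −log10 q of 5 was reached by 39 members (27.9%), against 2.13% of all peaks. A q of 1, which is 0 on the −log10 scale, was given to 22 members. The median −log10 q was 0 over all peaks labelled HA and 2.07 in the members. These values follow in part from the rule, since the q-value depends on the pileup. Of the 20 members with backgrounds of 20 tags or more, 17 had a q under 0.05. A fold enrichment of at least 5 was met by 20 members (14.3%) and by 1.45% of all peaks labelled HA, a count that follows in part from the rule, since a peak of few tags cannot reach it.

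**Figure D1:**
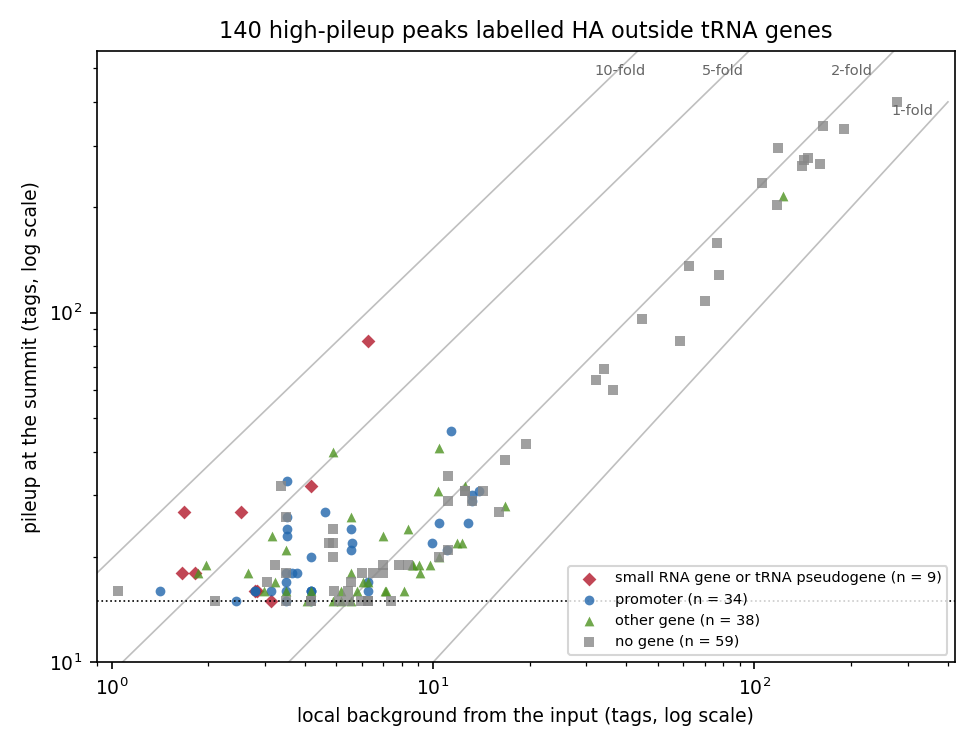
Pileup against computed background for the 140 members, both in tags on log axes, with grey lines of equal fold enrichment and a dotted line at the limit of 15 tags. The diamonds (small RNA genes and tRNA pseudogenes) lie to the left at backgrounds of 1.65 to 6.28, and 19 of the 20 points at 20 tags or more are grey squares, which overlap no gene.

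At the limit itself, the 20 peaks of 14 tags just outside had fold enrichments of 2.06 to 7.33 (median 3.44) over backgrounds of 1.05 to 6.28, and 10 of them overlapped a promoter window and 4 no gene. The 18 members of 15 tags had fold enrichments of 1.90 to 5.17 (median 2.90) over backgrounds of 2.09 to 7.43, and 3 overlapped a promoter window and 10 no gene. At 16 tags, 10 of 22 members overlapped a promoter window and 3 no gene, with a median fold enrichment of 3.28, so the counts at 14 and 15 tags do not mark a break.

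By annotation, 9 members overlapped a small RNA gene or a tRNA pseudogene, 34 of the others a promoter window, 38 another part of a gene and 59 neither a gene nor a promoter window. These classes were not counted over all peaks labelled HA. A tRNA pseudogene was at 5 members (3.57%), against 0.0409% of all peaks labelled HA. The 9 include the peak at the microRNA gene MIR4738, which also overlapped UNK. In all, 61 members overlapped no annotated gene (43.6%, 95% Wilson interval 35.6 to 51.8), close to the 40.4% of all peaks labelled HA. The biotypes met were protein-coding (56 members), long noncoding RNA (15), pseudogene (7), transcribed pseudogene (5), vault RNA (3), the immunoglobulin lambda locus IGL (3) and microRNA (1), with 15 members over more than 1 gene. Biotypes were not counted over all peaks labelled HA, so these counts do not set the members apart. Median fold enrichment was 6.73 in the 9 peaks at small RNA genes and tRNA pseudogenes, 3.79 at promoter windows, 2.63 in other genes and 2.26 where there was no gene. The table gives no exons, so exonic and intronic positions were not analysed here.

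The highest fold enrichment of all members belonged to a tRNA pseudogene. LOC100189498, also listed as TRG-CCC6-1 and as a tRNA glycine pseudogene, lay under the peak at chr1:149708507-149708858, with 83 tags over a background of 6.28, an enrichment of 11.5 times and a q-value of 54.4 on the −log10 scale. This pileup was higher than the highest of the 216 peaks at tRNA genes, 67 tags. Their highest fold enrichment, 14.9, was above that of this pseudogene. TRV-CAC11-2 (valine) had 32 tags and a fold enrichment of 6.37, and its near namesake TRV-CAC11-1 had 16 tags and 4.44. TRQ-CTG9-1 (glutamine) and TRE-CTC13-1 (glutamate) had 18 tags each, with fold enrichments of 7.16 and 6.73. These 5 were the only tRNA pseudogenes with a peak labelled HA at any pileup, among 98 on these chromosomes (5.10%, 2.20 to 11.4). Of the 439 tRNA genes, 255 (58.1%, 53.4 to 62.6) had a peak labelled HA, and 220 had one of 15 tags or more. None of the 98 tRNA pseudogenes and 9 of the 439 tRNA genes had a peak labelled WT. For 0 of 98, the Wilson interval reaches up to 3.77%. RefSeq calls these 5 loci pseudogenes, but their names are those of predicted tRNA genes, and whether they are transcribed was not measured here.

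The vault RNA genes code for short RNAs and are transcribed by RNA polymerase III. VTRNA1-2 had 27 tags over a background of 1.68, a fold enrichment of 10.4 and 18.2 for −log10 q. VTRNA2-1, whose RNA binds the kinase PKR, had 27 tags and a fold enrichment of 7.95. VTRNA1-1 had 16 tags and 4.49. The fourth gene, VTRNA1-3, had 32 tags and a fold enrichment of 12.98, but its peak touched a peak labelled WT and so was not a member. VTRNA1-1 and VTRNA1-2 lie inside the annotated long noncoding RNA gene LOC105378198. Of the list of 519 RNA polymerase III genes outside tRNA, most of them 5S ribosomal RNA pseudogenes, 10 had a peak labelled HA, 3 of them members, and 6 had a peak labelled WT. RN7SK with 15 tags, RMRP with 16 and RN7SL1 with 18 overlapped a peak labelled WT. RNY4 (14 tags) and RNY1 (10 tags), which code for Y RNAs, were below the limit.

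Few other short RNA genes were at a member. Of 1035 genes of spliceosomal, small nucleolar and Cajal body RNAs, 1 had a peak labelled HA (RNU2-22P, 5 tags), none of them a member, and 3 had a peak labelled WT. The microRNA gene MIR4738 met a member of 15 tags (fold enrichment 3.87) that also overlapped UNK, with the summit 118 bp from the nearer edge of that gene. Of 95 replication-dependent histone genes, 2 had a peak labelled HA and 1, the histone H4 gene H4C2, was a member with 16 tags and a fold enrichment of 4.12. None of the 93 protein-coding genes with symbols that start with RPL or RPS, a prefix that also takes in kinases, was at a member, and 10 had a peak of any height labelled HA. The share of all annotated genes with a peak or a member was not counted, and the genes differ in length. The counts of these lists, and of the RNA polymerase III list above, thus do not set the members apart.

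The pseudogenes that are not of tRNA had lower fold enrichments. NBEAP6 on chromosome 14 had 16 tags and 3.79. GUSBP1 on chromosome 5 held 2 members, of 23 tags (3.01) and 24 tags (2.67). POM121L1P, within IGL, had 18 tags and 2.89, LOC100132570, within LRRC37A, had 15 tags and 2.72, DUXAP9 had 15 tags and 2.43, and CROCCP2 had 19 tags and 2.06. Their backgrounds ran from 3.49 to 8.69 tags, and those of the tRNA pseudogenes from 1.65 to 6.28.

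A promoter window was overlapped by 35 of the 138 members on chromosomes with such windows (25.4%, 18.8 to 33.2), against 3.07% of all peaks labelled HA. One of the 35 was the peak of VTRNA1-1, which also lies at the start of LOC105378198. The annotated start sites were not used by the rule. Among the other peaks labelled HA outside tRNA genes and peaks labelled WT, the share was 33.4% at 10 to 14 tags (96 of 287), 3.21% at 6 to 9 tags (154 of 4804) and 0.674% at 4 to 5 tags (40 of 5932). Peaks labelled WT chosen the same way overlapped a window in 4 of 309 cases (1.29%, upper bound 3.28), and high peaks shared by both lists in 2 of 116 (1.72%). At tRNA genes the share was 25 of 213 (11.7%, 8.08 to 16.7). Within the members it was 22 of 55 (40.0%) at backgrounds under 5 tags, 13 of 63 (20.6%) at 5 to 20 tags and 0 of 20 at 20 tags or more.

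**Figure D2:**
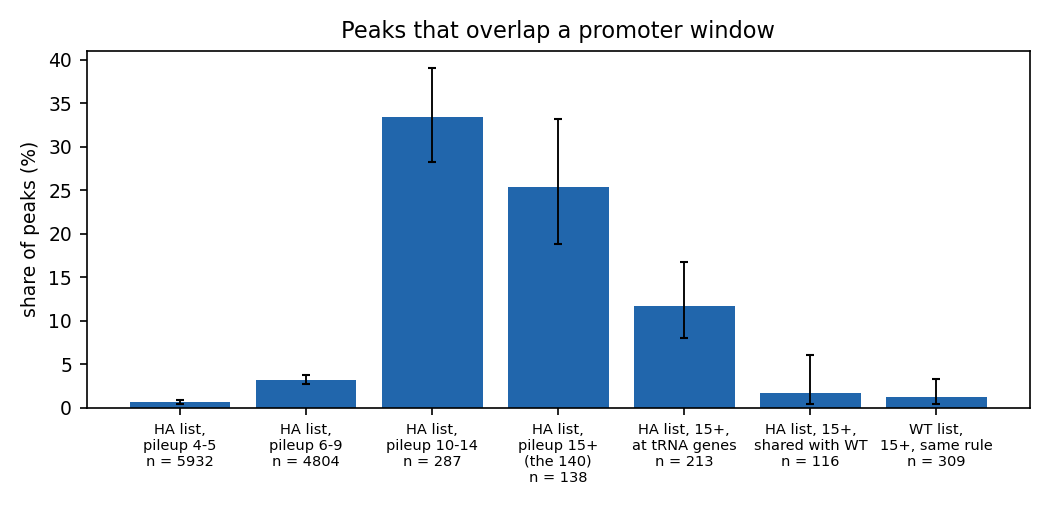
Share of peaks that overlap a promoter window, in percent, with 95% Wilson intervals as bars and the number of peaks under each column. The share is 0.674% and 3.21% in the lower pileup ranges, 33.4% at 10 to 14 tags and 25.4% among the members, and 1.29% for peaks labelled WT chosen by the same rule.

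The summits of the 35 peaks ran from 378 bp upstream to 343 bp downstream of the start sites, with a median of 98 bp upstream. An overlap with the window, which lies mostly upstream, fixes much of this position, so it is given as a description only. FEM1A, which codes for a substrate receptor of a ubiquitin ligase, led them with 33 tags over a background of 3.50, a fold enrichment of 7.55 and a summit 120 bp upstream of the start. SLX4IP, a partner of the nuclease scaffold SLX4, had 16 tags over a background of 1.42 (7.04). BOD1, a regulator of chromosome attachment in mitosis, had 26 tags (5.99), and BANP, which codes for a DNA-binding protein of CpG promoters, had 24 (5.55) with the summit 378 bp upstream. KMT2A, the histone H3 lysine methyltransferase gene that is rearranged in leukemia, had 23 tags and 5.33.

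Several of the genes named next were chosen after their values were seen, because their products work in transcription, replication or RNA metabolism. GTF2H4, a subunit of TFIIH, had 27 tags and a fold enrichment of 4.98, and NELFA, of the negative elongation factor, had 16 tags and 4.49. DEK, a chromatin protein, had 18 tags and 3.97. The peaks of NELFA and DEK met the promoter windows of these genes only. The annotated genes that they overlapped were LOC124900839 and LOC124901270. The replication helicase factor CDC45 had 46 tags, the most of the 35, over a background of 11.4 (3.80). The translation termination factor GSPT1 had 15 tags and 4.65. The splicing helicase DDX23 had 16 tags and 3.28, and the pseudouridine synthase TRUB2 had 25 tags over a background of 10.5 (2.27).

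**Figure D3:**
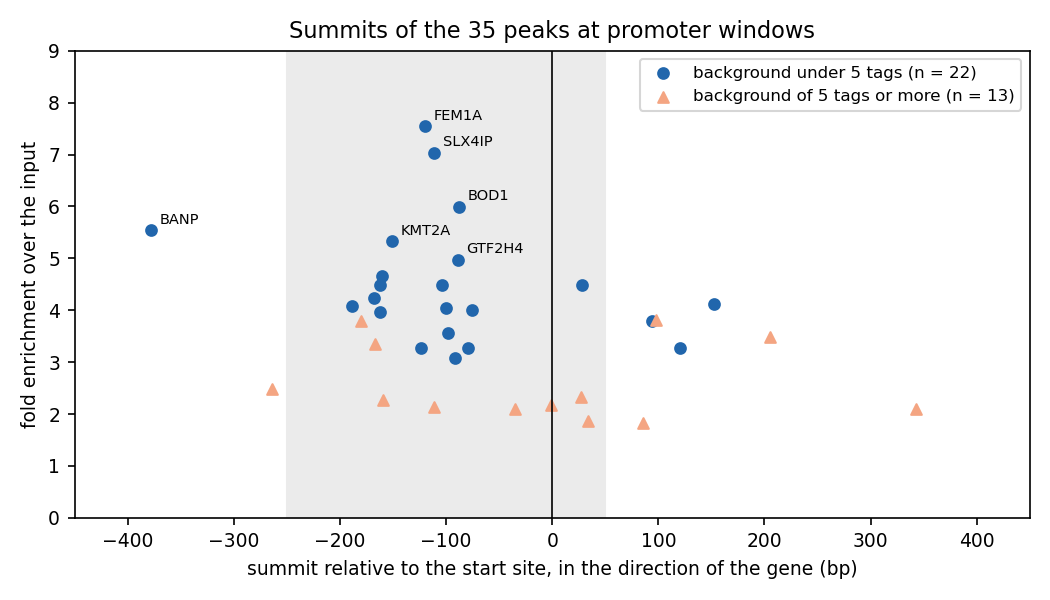
Fold enrichment of the 35 members at promoter windows against the distance of the summit from the start site in bp, negative upstream, with the window shaded. Circles are the 22 members with a background under 5 tags and triangles the 13 with 5 or more, and overlap with the window was what chose these peaks. The highest points, FEM1A and SLX4IP, have fold enrichments of 7.55 and 7.04.

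A further group of members lay near an edge of an annotated gene but outside the windows, or at genes without an entry in the promoter table. The gene table gives no strand, so for genes without an entry the edge may be the start or the far end. USP31, a deubiquitinase without an entry, had 18 tags over a background of 1.86 (fold enrichment 6.63) with the summit 88 bp from the nearer edge of the gene. USP5, another deubiquitinase, had 19 tags (6.75) at 368 bp downstream of its start, TOR1AIP1, of the inner nuclear membrane, had 23 tags (5.78) at 434 bp downstream of its start, and PANK4, of the pantothenate kinase family, had 18 tags (5.19) at 335 bp downstream of its start. A peak of 32 tags (7.56) that overlapped no gene was 563 bp upstream of the start of PPP6R3, a phosphatase subunit. Genes of RNA polymerase III and general transcription also appear here and were picked after their values were seen. MAF1, the repressor of RNA polymerase III, had 17 tags (4.26) at 379 bp from the nearer edge, and TAF8, a subunit of TFIID, had 16 tags (4.28) at 113 bp. In contrast, INO80, the ATPase of a chromatin remodelling complex, held a member of 40 tags over a background of 4.88 (6.97, −log10 q 17.7) deep inside the gene, 53141 bp from the nearer edge.

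Sequence letters were counted on both strands of the 34 windows under the 35 peaks and of all 35116 windows of 27305 genes. The letters were chosen after some of the windows had been read, so these shares describe the windows and carry no test. The letters TGGCNNAGT of the A box and GTTCGANNC of the B box of tRNA genes were in none of the 34 windows, against 3.43% and 0.829% of all. With shares this low over all windows, none of 34 does not set the members apart. The windows also end 50 bases after the start, and that of LOC105378198, where VTRNA1-1 lies, held neither. The GC box GGGCGG was in 27 (79.4%) against 45.0% of all windows and 56.3% of the protein-coding ones. AANATGGC was in 14 (41.2%, 26.4 to 57.8) against 6.58%, and the longer AAGATGGCG, which contains it, was in 6 (17.6%) against 1.75%. ACTACAA was in 9 (26.5%, 14.6 to 43.1) against 2.77%. In 21 of the 34 windows at least 1 of AANATGGC and ACTACAA was found, and in 2, those of FEM1A and FBXL19-AS1, both. CCGGAAG, the core bound by ETS factors, was in 20.6% against 10.3%, CCAAT in 32.4% against 34.6%, and TATAAA in 11.8% against 11.5%. CTCGCGAG, the core bound by BANP, was in 1 window, that of BANP itself, against 1.02% of all. Median GC content was 63.8% in the 34 windows and 58.7% in all. Among 7134 protein-coding windows within 5 points of the members' median GC content, AANATGGC was in 8.80%, ACTACAA in 3.55%, the GC box in 66.0% and CCGGAAG in 17.8%, the last close to its share in the 34 windows. A match is a description of letters and not a site or a cause.

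The same letters were then counted in windows under other peaks, those of the members left out. AANATGGC was in 19 of 93 windows (20.4%, 13.5 to 29.7) under peaks of 10 to 14 tags, 17 of 153 (11.1%) at 6 to 9 tags and 1 of 40 (2.50%) at 4 to 5 tags. ACTACAA was in 11 of 93 (11.8%, 6.73 to 19.9), 11 of 153 (7.19%) and 0 of 40 of them (upper bound 8.76%). Under all peaks labelled WT the counts were 5 of 46 (10.9%, 4.73 to 23.04) and 0 of 46 (upper bound 7.71%). Both shares were thus lower in each lower pileup range, with intervals that overlap between neighbouring ranges. The letters were chosen after some of the members' windows had been read, so the members' own shares may be raised by that choice. The order of the ranges carries no test. The GC box was in 79.4% of the members' windows, 80.6% at 10 to 14 tags, 69.9% at 6 to 9 tags and 37.5% (15 of 40) at 4 to 5 tags. Without chromosomes 9, 13 and 22, AANATGGC was in 11 of 24 members' windows (45.8%) and ACTACAA in 8 (33.3%).

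**Figure D4:**
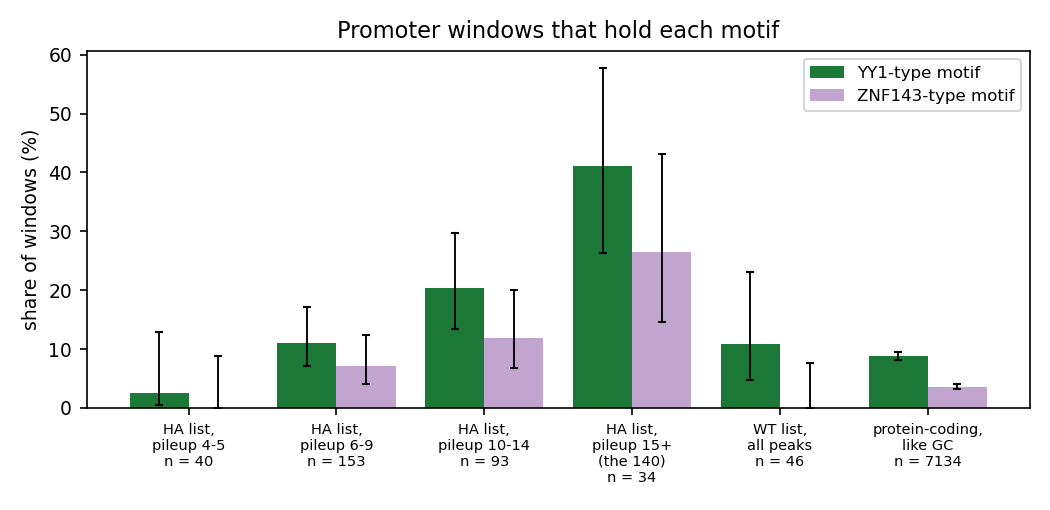
Share of promoter windows, in percent, that hold AANATGGC (YY1-type motif) or ACTACAA (ZNF143-type motif) under peaks of each pileup range, under peaks labelled WT and in protein-coding windows of like GC content, with 95% Wilson intervals. The columns for AANATGGC are 2.50%, 11.1%, 20.4% and 41.2% from the lowest pileup range to the members, and 8.80% in windows of like GC content. The letters were chosen after some of the members' windows had been read, so the members' columns may be raised by that choice.

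The 20 matches of AANATGGC in these 14 genes were 11 on the strand of the gene and 9 on the other. In 7 genes the match nearest to the start came just after it, in each case on the strand of the gene, as in KMT2A, NELFA and DDX23 above. The motif contains the letters ATG, and whether these are start codons was not analysed here. The median distance of the nearest match to the summit was 109 bp, and the farthest was 192 bp. For ACTACAA, 11 of 12 matches were upstream of the start, with a median distance of 60 bp to the summit and 5 matches within 50 bp. SLX4IP held 3 matches of AANATGGC in the printed stretch, 1 of them 7 bp from the summit.

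Most members were far from tRNA genes. Of the 135 members on a chromosome with a tRNA gene, 7 were within 10 kb of one (5.19%, 2.53 to 10.3). The share was 2.31% over all peaks labelled HA, most of them on a tRNA gene itself, which the rule leaves out of the members. Outside tRNA genes and peaks labelled WT it was 2 of 288 (0.694%) at 10 to 14 tags, 9 of 4969 (0.181%) at 6 to 9 tags and 5 of 6180 (0.0809%) at 4 to 5 tags. The median distance was 12.3 Mb, against 9.49 Mb for all peaks labelled HA, but 8.63 Mb without chromosomes 9, 13 and 22, and it was 23.1 Mb for the 27 members on chromosome 22. Of these 7, 3 were the pseudogenes LOC100189498, TRV-CAC11-1 and TRV-CAC11-2, which lay 1568 to 3694 bp from a tRNA gene with a peak of its own. The peak in POLR3E, a subunit of RNA polymerase III, had 21 tags (fold enrichment 4.90) and lay 1250 bp from TRL-AAG2-4, whose peak had 43 tags (10.4). A peak of 17 tags (2.74) without a gene was 511 bp from TRS-TGA1-1, which had 41 tags (11.9). The remaining pair of peaks, of 22 tags each, lay 581 and 9470 bp from TRL-CAA6-1, which had no peak.

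By chromosome, the members were uneven. Chromosome 22 held 27 of the 140 (19.3%), against 1.55% of all peaks labelled HA. Chromosome 1 held 18 (12.9% against 9.28%), chromosome 16 held 15 (10.7% against 4.04%) and chromosome 10 held 11 (7.86% against 4.72%). Chromosome 18, with 2.01% of all peaks labelled HA, held none, which is little to set beside so low a share. The 27 on chromosome 22 had a median background of 8.13 tags and a median fold enrichment of 2.18, and 9 were at promoter windows, such as CDC45. Members also lay in the fusion genes of K562, with 2 summits in BCR (17 and 19 tags, backgrounds of 6.06 and 8.62) and 2 in 1 region of ABL1 (19 and 20 tags, backgrounds of 9.76 and 10.5), and in MIR17HG on chromosome 13 (22 tags, background 12.3). K562 is known to carry extra copies of parts of chromosomes 9, 13 and 22. The 40 members on those chromosomes had a median background of 8.37 and a median fold enrichment of 2.26, against 3.28 for the other 100. Copy number was not measured here, and its part in these pileups was not tested.

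**Figure D5:**
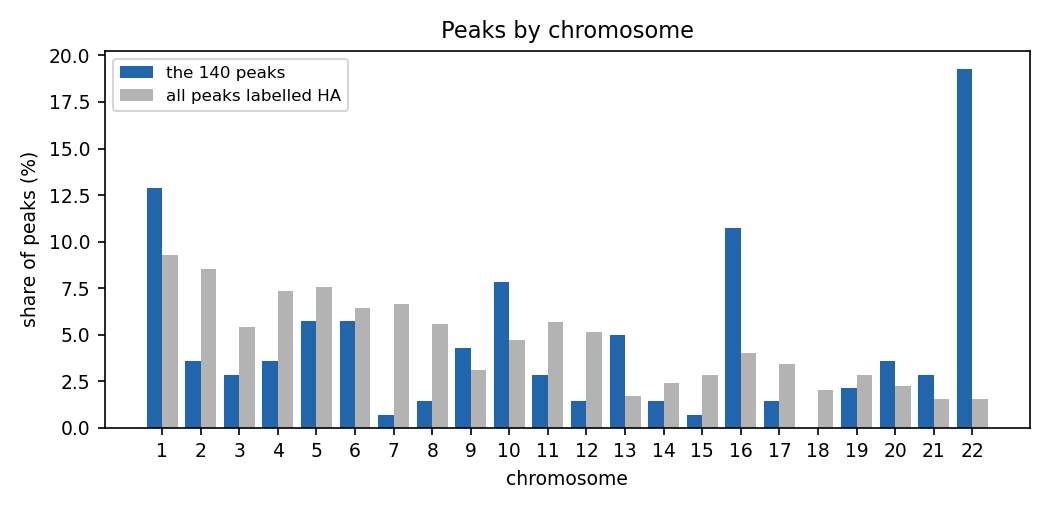
Share of the 140 members (blue) and of all peaks labelled HA (grey) on each chromosome, in percent. Chromosome 22 holds 19.3% of the members and 1.55% of all peaks, and chromosome 18 holds no member and 2.01% of all peaks.

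The members of highest background overlapped no gene. They lay at chr3:93470369-93470796 (401 tags over a background of 278, fold enrichment 1.44), chr16:34588003-34588333 (335 tags over 190), chr16:46401331-46401575 (342 over 164), chr4:49711536-49711774 (266 over 160) and chr1:143264551-143264786 (277 over 146). These positions are beside centromeres or their heterochromatin. All 11 members on chromosome 10 overlapped no gene, 10 of them between 38529169 and 42075456 bp, with backgrounds of 3.04 to 62.8 tags. A peak labelled WT lay within 1 kb of 13 members and within 10 kb of 39, counts that were not made for all peaks labelled HA. Of the 59 members with neither a gene nor a promoter window, 4 had a fold enrichment of at least 5. The highest of them was chr6:59380943-59381170. It had 16 tags over the genome-wide background of 1.05 and a fold enrichment of 8.31. A peak labelled WT lay 5422 bp from it, and a member of 31 tags over a background of 12.6 lay at chr6:59445186-59445388. The peak of 32 tags near PPP6R3, named above, had a background of 3.36 and a fold enrichment of 7.56. A peak of 26 tags at chr16:70439176-70439558 had a background of 3.49 and a fold enrichment of 6.02. The last, of 15 tags at chr22:11017143-11017464, had a background of 2.09 and a fold enrichment of 5.17.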

How the data were processed

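K562 ChIP libraries labelled HA and WT were each precipitated with an HA antibody and sequenced beside an input, 1 library per condition. The submitters' processing notes name BWA 0.7.12 and MACS2 2.1.0, and the file headers MACS 2.1.0.20150420. The authors called peaks per library against its own input on reads without duplicates, with a p-value cutoff of 0.005, an extension of 201 bp (HA) or 234 bp (WT) and a genome size of 3099750718. The deposited pileup is a signal, the number of extended tags at the summit. The fold enrichment deposited beside it is a ratio, the pileup plus 1 over the local background plus 1. The p-values and q-values deposited are on the −log10 scale. Deposited lengths and positions are in bp. The headers name no build. The names of the extra sequences are those of GRCh38.

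The background was computed as (pileup + 1)/fold enrichment − 1. Genes were assigned by an overlap of at least 1 bp with the RefSeq table of GRCh38.p14 (59792 genes). Promoter windows came from a RefSeq table of 35116 windows of protein-coding and long noncoding RNA genes, with none on chromosome 8. Neighbouring windows that overlap read the same in 4912 of 4912 cases. Shares carry 95% Wilson intervals, and medians exact binomial intervals on the order statistics. These cover counting error only and not differences between experiments. With 1 library per condition, no test between conditions was made. Overlap, distance and background steps were tested on simulated data.

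The genes named were those at the 20 members of highest fold enrichment, those at members that are neither protein-coding nor long noncoding RNA, those of the lists of RNA polymerase III and other short RNA genes at a member, and those at the 5 members of highest background. Others are said to have been chosen after their values were seen, or illustrate a count. The members and lists were chosen with earlier results of these data known. Alternatives were other limits on pileup, q-value and fold enrichment, 1 kb margins around peaks labelled WT and tRNA genes, and merging of peaks within 500 bp. Leaving out chromosomes 9, 13 and 22, and the promoter share under every alternative, were added after the data were seen. The calculations used matplotlib 3.10.9, scipy 1.17.1, numpy 2.4.6 and pandas 2.3.3 under Python 3.11.15.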

Additional observations from a re-analysis of the deposited data

How the results depend on the processing

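Of 48 values recomputed under 8 alternatives, 31 moved by less than their interval, or by less than 1.5 times for the number of members. The number of members was 435 at a pileup of at least 10, 71 at 20 or more, 39 with a −log10 q of at least 5 and 20 with a fold enrichment of at least 5. The median fold enrichment was 2.21 at a pileup of 20 or more, 4.98 with the q limit, 6.74 with the fold limit and 3.28 without chromosomes 9, 13 and 22, a choice made after seeing the data. The share without a gene was 34.3% at a pileup of at least 10, 53.5% at 20 or more, 20% with the fold limit and 52% without the 3 chromosomes. The share at a promoter window, also computed under the alternatives after seeing the data, was 17.9% with the q limit. The share within 10 kb of a tRNA gene was 2.13% at a pileup of at least 10 and 10.5% with the fold limit. The share at the genome-wide background was 0% at a pileup of 20 or more and 5% with the fold limit. The limits themselves set how many and which peaks were counted, and other causes were not tested. No paired analysis was possible because a single library was made per condition.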
